A study of Mus musculus with 8 samples.

Results

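The TGF-beta ligand, receptor and feedback genes were examined in colon tumours of azoxymethane-treated mice. The 9 genes described here were listed by their role in the pathway: the ligands Tgfb1, Tgfb2 and Tgfb3, the receptors Tgfbr1, Tgfbr2 and Tgfbr3, the activin subunit gene Inhba, the inhibitor gene Smad7 and the matrix gene Tgfbi. All 9 were found among the 38355 genes of the count tables, and all 9 passed the low-count filter that left 16539 genes for testing. RNA was sequenced from 8 tumours, 1 per mouse: 4 of genotype Trp53ΔIEC and 4 of genotype Trp53ΔIECAktE17K. Both genotypes lack Trp53 in the intestinal epithelium (ΔIEC), and the second adds AktE17K, a form of the kinase AKT with an activating substitution. All 8 mice had received azoxymethane, a carcinogen used to induce colon tumours. The labels give no age, no sex and no Cre driver. A whole tumour mixes epithelium with stroma, vessels and immune cells, so fewer cells of a type and less RNA per cell cannot be told apart in any value below.

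TGF-beta is secreted as a latent complex, held by its own propeptide and by latent TGF-beta binding proteins in the matrix, until integrins, thrombospondin or proteases release it. The active ligand binds the type II receptor kinase, which phosphorylates the type I receptor, and the type I receptor then phosphorylates Smad2 and Smad3, which enter the nucleus with Smad4. In intestinal epithelium the pathway restrains growth, whereas in fibroblasts it drives matrix production, and Smad7 and other induced inhibitors close the feedback loop.

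Levels are given as CPM, the usual depth-scaled read count, and differences as log2 fold changes of Trp53ΔIECAktE17K over Trp53ΔIEC. Of the 9 genes 1 passed the test (edgeR quasi-likelihood, adjusted p under 0.05), Tgfbr3, which was 3.21-fold higher in Trp53ΔIECAktE17K tumours. Of all tested genes 4.20% passed, and 3.44% of all tested genes passed as higher, so that a share of 1 in 9 rests on a single gene. Tgfb2 and Tgfb3 had the largest fitted fold changes of the set, 3.71 and 4.89, with a wide spread among Trp53ΔIECAktE17K tumours, and did not pass. For the other 6 genes the fitted fold lay between 0.683 (Smad7) and 1.45 (Inhba). The median log2 fold change of the 9 genes was 0.34, beside 0.01 over all tested genes, and 8 of the 9 had a positive value, beside 51.1% of all genes. An unadjusted p under 0.05 was found for 3 of the 9 (Tgfb2, Tgfb3 and Tgfbr3) and for 20.8% of all tested genes. DESeq2 called these 3, where it called 12.1% of its genes, and limma-voom called 1 (Tgfbr3), where it called 3.13%.

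The promoters of Tgfb1 and Tgfb2 are shown because the RNA of Tgfb1 varied little and that of Tgfb2 much among Trp53ΔIECAktE17K tumours, as given further on. Each line is the 250 bases upstream of the annotated start, from RefSeq on GRCm38.p6 and written 5′ to 3′ on the gene's strand, with every match to a searched motif in capitals.
Tgfb1, chr7:25686752-25687001, plus strand: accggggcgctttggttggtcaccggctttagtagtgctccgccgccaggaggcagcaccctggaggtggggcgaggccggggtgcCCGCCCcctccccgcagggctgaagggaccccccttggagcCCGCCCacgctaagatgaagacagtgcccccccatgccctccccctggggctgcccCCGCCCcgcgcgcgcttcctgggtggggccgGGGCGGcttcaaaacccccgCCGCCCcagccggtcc
Tgfb2, chr1:186705990-186706239, minus strand: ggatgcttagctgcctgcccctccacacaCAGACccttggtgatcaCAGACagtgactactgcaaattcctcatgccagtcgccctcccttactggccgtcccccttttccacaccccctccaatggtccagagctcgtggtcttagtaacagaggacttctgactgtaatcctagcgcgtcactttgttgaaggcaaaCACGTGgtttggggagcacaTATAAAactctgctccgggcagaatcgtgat
The motifs searched on both strands were the GC box GGGCGG, the SMAD box CAGAC, the AP-1 site TGANTCA, the E-box CACGTG, the cyclic AMP element TGACGTCA and the TATA box TATAAA. The Tgfb1 window held 5 GC boxes, the first bases of which lay 164, 123, 67, 36 and 16 bases before the start, and none of the other motifs. The Tgfb2 window held 2 SMAD boxes (221 and 204 bases before the start), 1 E-box (51) and 1 TATA box (31), and no GC box. Its GC content was 53.6%, and that of the Tgfb1 window was 75.2%, where the median window had 52.4%. Among 32851 windows of the same length 32.7% held a GC box, 42.2% a SMAD box, 6.02% the E-box and 12.4% the TATA box. A match is a string of letters and not a measured binding site. Of the 9 genes 6 had an entry in the promoter table.

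**Figure D1:**
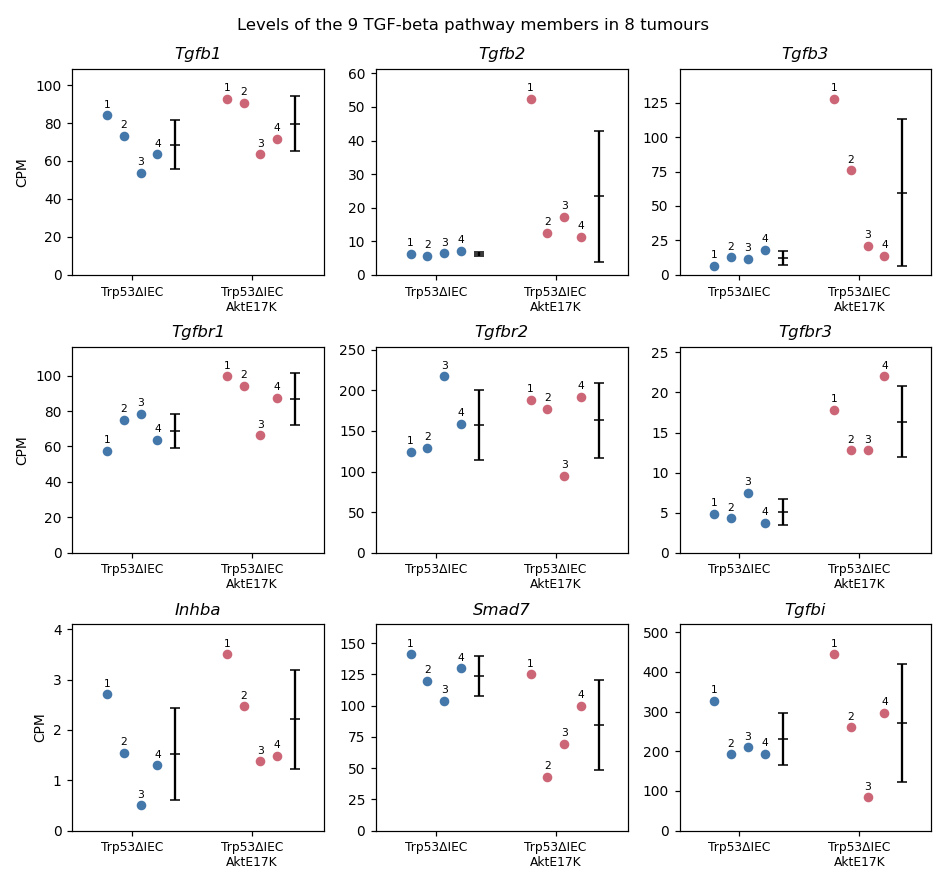
Level of each of the 9 genes (CPM, linear axis from 0) in the 4 Trp53ΔIEC tumours (blue) and the 4 Trp53ΔIECAktE17K tumours (red). Each point is 1 tumour with its replicate number, and the black mark is the mean with its SD. Tgfbr3 and Tgfb2 are the genes whose groups do not overlap, as in 14.2% of all tested genes (either direction). Tgfb2 reached 52.5 CPM in a single tumour.

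Tgfb1 (ENSMUSG00000002603, chromosome 7, 25687002 to 25705077, plus strand, mm10) encodes the most widely made ligand, abundant in immune cells and platelets. It was measured at 84.1, 73.1, 53.7 and 63.5 CPM in Trp53ΔIEC replicates 1 to 4 and at 92.9, 90.5, 63.5 and 71.7 CPM in Trp53ΔIECAktE17K replicates 1 to 4. The groups overlapped, and the log2 fold change was 0.22 (95% interval -0.20 to 0.63, adjusted p = 0.538). For the platelet gene Pf4 the difference was 0.19 on the log2 scale (adjusted p = 0.810), and for Ppbp it was 1.85 (adjusted p = 0.264). None of 4 tested platelet markers passed in edgeR, DESeq2 or limma-voom, nor did any have an unadjusted p under 0.05 in edgeR.

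Tgfb2 (ENSMUSG00000039239, chromosome 1, 186622792 to 186705989, minus strand), a ligand that needs the co-receptor betaglycan for efficient binding, was measured at 6.23, 5.60, 6.36 and 7.07 CPM in the Trp53ΔIEC tumours. In Trp53ΔIECAktE17K replicates 1 to 4 it was at 52.5, 12.5, 17.3 and 11.4 CPM. Every Trp53ΔIECAktE17K tumour lay above every Trp53ΔIEC tumour, as in 14.2% of all tested genes (either direction), and replicate 1 stood apart from the other 3. Its log2 fold change was 1.89 ± 0.50 (SE, 95% interval 0.75 to 3.04, adjusted p = 0.0782). Without Trp53ΔIECAktE17K replicate 1 it was 1.10 (adjusted p = 0.0832). The highest Trp53ΔIEC tumour had 1.26 times the level of the lowest, where the median tested gene had 1.63 times. Among Trp53ΔIECAktE17K tumours the highest had 4.61 times the lowest, a ratio reached by 13.5% of genes.

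Tgfb3 (ENSMUSG00000021253, chromosome 12, 86056745 to 86079041, minus strand), the ligand best known from palate closure and from mesenchymal cells, had the widest spread of the 9 genes among Trp53ΔIECAktE17K tumours. Trp53ΔIEC replicates 1 to 4 had 6.39, 12.6, 11.7 and 18.1 CPM, and Trp53ΔIECAktE17K replicates had 128, 76.0, 21 and 13.7 CPM. Replicates 1 and 2 were far above all other tumours, replicate 3 was slightly above the highest Trp53ΔIEC tumour, and replicate 4 lay within the Trp53ΔIEC range. The log2 fold change was 2.29 ± 0.70 (SE, adjusted p = 0.114). Without Trp53ΔIECAktE17K replicate 4 it was 2.61 (adjusted p = 0.0488), and without replicate 1 it was 1.58 (adjusted p = 0.241). The 2 tumours with high Tgfb3 are those whose titles carry the letter A, whereas the other 6 carry B, and its meaning is not given. The codes of the deposited tables instead give A to all 4 Trp53ΔIECAktE17K tumours, and the labels do not say which holds. A fit that includes the title letter, and so rests on Trp53ΔIECAktE17K replicates 3 and 4, gave Tgfb3 a value of 0.51 (adjusted p = 0.611). For Tgfb2 the same fit gave 1.19 (adjusted p = 0.337). Tgfb3 overlaps Ttll5 on the opposite strand (mean 24.5 CPM), and the library kit does not record strand, so reads shared by exons of both could not be attributed.

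On a scale of CPM per kilobase of exon, which allows levels of different genes to be compared, Tgfb1 was the leading ligand in Trp53ΔIEC tumours, at 13.6 ± 2.58 (SD, n = 4). Tgfb3 was at 3.60 ± 1.42 and Tgfb2 at 1.09 ± 0.104. In Trp53ΔIECAktE17K tumours Tgfb3 was at 17.6 ± 15.7, Tgfb1 at 15.8 ± 2.84 and Tgfb2 at 4.04 ± 3.37 on the same scale. Tgfb1 made up 84.9%, 75.6%, 70.1% and 65.7% of the summed ligand RNA per kilobase in the Trp53ΔIEC tumours and 28.3%, 42.1%, 57.8% and 70.3% in the Trp53ΔIECAktE17K tumours. Tgfb3 exceeded Tgfb1 in Trp53ΔIECAktE17K replicates 1 and 2, with shares of 57.8% and 52.8%, and in no other tumour. The 3 shares make up the whole in each tumour, so a lower share of 1 ligand goes with a higher share of the others. The level of Tgfb1 itself had a fitted log2 fold change of 0.22. The mean share of Tgfb1 was 24.4 percentage points lower in Trp53ΔIECAktE17K tumours and that of Tgfb3 19.9 points higher. These differences did not pass when all 70 assignments of the tumours were enumerated (two-sided exact permutation p = 0.0857 and 0.114, each 0.137 after Benjamini-Hochberg adjustment over 6 shares). With 4 tumours per group this test gives no p under 0.0286. An adjusted p under 0.05 would need several of the 6 shares at that floor, so the adjusted values cannot decide on a single share. The share of Tgfb2 was 6.03% ± 0.973 and 10.6% ± 4.16 (SD, n = 4 each, exact permutation p = 0.114, adjusted 0.137).

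**Figure D2:**
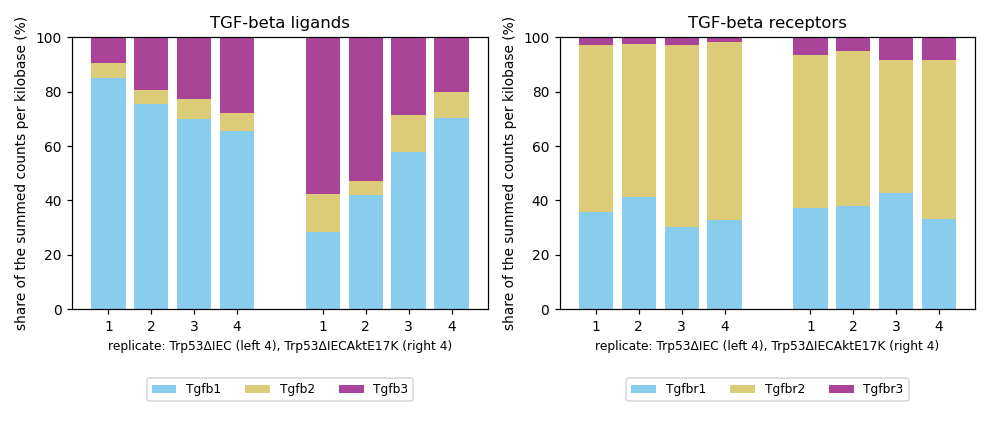
Share of each gene in the summed counts per kilobase of exon (%) of the 3 TGF-beta ligands (left) and of the 3 receptors (right), 1 stacked bar per tumour, Trp53ΔIEC replicates first in each panel. Tgfb3 fills over 50% of the ligand bar in Trp53ΔIECAktE17K replicates 1 and 2, and Tgfbr3 is a thin top slice that is wider in all 4 Trp53ΔIECAktE17K tumours.

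Inhba (ENSMUSG00000041324, chromosome 13, 16011851 to 16031621, plus strand) encodes the beta A subunit of activin A, which signals through Smad2 and Smad3 by its own receptors. It was the least abundant of the 9 genes, with 9 to 83 reads per tumour. Trp53ΔIEC replicates 1 to 4 had 2.71, 1.54, 0.502 and 1.30 CPM, and Trp53ΔIECAktE17K replicates had 3.50, 2.47, 1.38 and 1.49 CPM. The ranges overlapped, and the interval of the log2 fold change, -0.66 to 1.73, leaves changes in either direction possible (adjusted p = 0.606).

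Among the receptors, Tgfbr3 (ENSMUSG00000029287, chromosome 5, 107106570 to 107289629, minus strand) encodes betaglycan, the co-receptor that presents ligand, TGF-beta 2 in particular, and that also binds inhibin. Trp53ΔIEC replicates 1 to 4 had 4.86, 4.32, 7.48 and 3.77 CPM, and Trp53ΔIECAktE17K replicates had 17.8, 12.8, 12.8 and 22.0 CPM. All 4 Trp53ΔIECAktE17K tumours lay above all 4 Trp53ΔIEC tumours, where 14.2% of all tested genes had groups without overlap (either direction). The spread within the groups was close to that of a typical gene (highest over lowest 1.99 and 1.72, beside medians of 1.63 and 1.78). The rise was 1.68 ± 0.30 on the log2 scale (SE, 95% interval 0.99 to 2.38, adjusted p = 0.0263). Its call was lost without Trp53ΔIEC replicates 1, 2, 3 or 4 in turn (adjusted p = 0.0656, 0.0870, 0.0504 and 0.0822) and without Trp53ΔIECAktE17K replicate 1 (0.0776), while the log2 fold change stayed between 1.49 and 1.90 in all 8 removals. With the title letter as a term it was 1.77 (adjusted p = 0.0915).

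Tgfbr1 (ENSMUSG00000007613, chromosome 4, 47353222 to 47414931, plus strand), the type I receptor kinase, was at 57.6, 75.0, 78.3 and 63.8 CPM in Trp53ΔIEC and at 99.5, 94.2, 66.2 and 87.3 CPM in Trp53ΔIECAktE17K tumours. Trp53ΔIECAktE17K replicate 3 lay within the Trp53ΔIEC range and the other 3 above it. The log2 fold change was 0.34 (95% interval -0.03 to 0.71, adjusted p = 0.278). Tgfbr2 (ENSMUSG00000032440, chromosome 9, 116084293 to 116175360, minus strand), the type II receptor kinase and a gene often mutated in colorectal cancers with microsatellite instability, was at 124, 129, 217 and 159 CPM and at 188, 177, 95 and 192 CPM. The ranges overlapped in part: Trp53ΔIECAktE17K replicate 3 lay below all Trp53ΔIEC tumours, and Trp53ΔIEC replicate 3 lay above all tumours of the other group. In the fit the interval of the log2 fold change ran from -0.55 to 0.66 (adjusted p = 0.933).

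Per kilobase of exon Tgfbr2 was the leading receptor in both groups, with a share of the 3 receptors of 62.5% ± 4.64 in Trp53ΔIEC and 55.1% ± 4.19 in Trp53ΔIECAktE17K tumours (SD, n = 4 each, exact permutation p = 0.0857, adjusted 0.137). Tgfbr1 had shares of 35.0% ± 4.70 and 37.8% ± 3.91 (exact permutation p = 0.400, adjusted 0.400). The share of Tgfbr3 was 3.0%, 2.37%, 2.89% and 1.94% in the Trp53ΔIEC tumours and 6.65%, 5.15%, 8.27% and 8.37% in the Trp53ΔIECAktE17K tumours. These shares did not overlap, the exact permutation p was 0.0286, the smallest this design allows, and it was 0.137 after adjustment over the 6 shares. A share does not depend on how the libraries are scaled, but the 3 receptor shares of a tumour depend on each other, as those of the ligands do.

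Smad7 (ENSMUSG00000025880, chromosome 18, 75367529 to 75395935, plus strand), the inhibitory Smad that is itself induced by TGF-beta and blocks the type I receptor, was the gene of the set with a negative fitted change. It was at 141, 120, 104 and 130 CPM in Trp53ΔIEC and at 125, 42.9, 69.7 and 100 CPM in Trp53ΔIECAktE17K tumours. Replicates 2, 3 and 4 of the latter lay below the Trp53ΔIEC range and replicate 1 within it. The log2 fold change was -0.55 (95% interval -1.23 to 0.13, adjusted p = 0.338). Tgfbi (ENSMUSG00000035493, chromosome 13, 56609523 to 56639562, plus strand), a secreted matrix protein gene induced by TGF-beta, was at 327, 192, 210 and 194 CPM and at 444, 260, 83.7 and 297 CPM. Trp53ΔIECAktE17K tumours held both the highest and the lowest value, and the interval of the log2 fold change was -0.76 to 1.23 (adjusted p = 0.805).

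**Figure D3:**
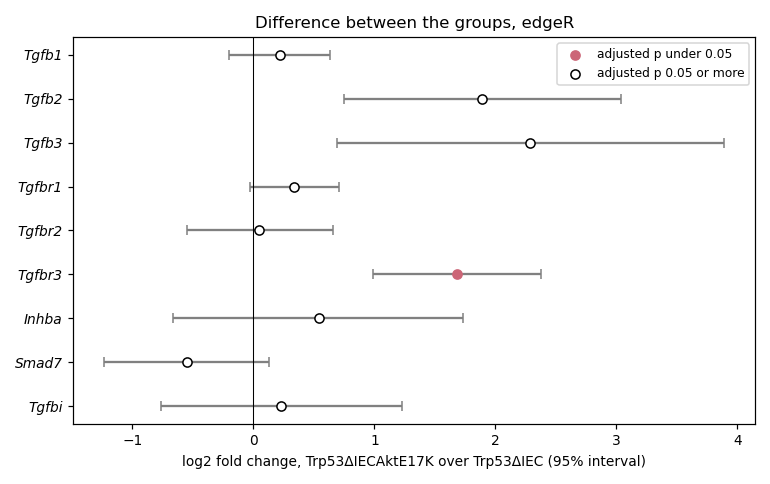
Log2 fold change of Trp53ΔIECAktE17K over Trp53ΔIEC for each gene (edgeR, x axis) with its 95% interval. The filled point, Tgfbr3 at 1.68, is the gene with an adjusted p under 0.05. Each interval is for a single gene and is not adjusted over all genes tested. Those of Tgfb2 and Tgfb3 are wide and lie above 0, but neither gene passed (edgeR, adjusted p = 0.0782 and 0.114).

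Per kilobase of exon the order of mean levels in Trp53ΔIEC tumours was Tgfbi (61.2), Smad7 (27.4), Tgfbr2 (19.2), Tgfb1 (13.6), Tgfbr1 (10.5), Tgfb3 (3.60), Tgfb2 (1.09), Tgfbr3 (0.780) and Inhba (0.237). Neighbours from Smad7 to Tgfbr1, and Tgfb2 with Tgfbr3, had overlapping ranges, so that their order is not resolved by 4 tumours. In Trp53ΔIECAktE17K tumours Tgfbi (71.8) was followed by Tgfbr2 (19.9), Smad7 (18.7), Tgfb3 (17.6), Tgfb1 (15.8), Tgfbr1 (13.3), Tgfb2 (4.04), Tgfbr3 (2.50) and Inhba (0.346). Tgfb3 ranged from 4.05 to 37.7 in that group and overlapped Tgfbr2, Smad7, Tgfb1 and Tgfbr1, so their order is not resolved either. In range Tgfbi overlapped Tgfbr2, Smad7 and Tgfb3, and Tgfb2 overlapped Tgfb3 and Tgfbr3. Ranges over a group do not compare 2 genes within the same tumour.

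Trp53ΔIECAktE17K replicate 1 had the highest level of its group in 7 of the 9 genes, the exceptions being Tgfbr2 and Tgfbr3, and replicate 3 the lowest in 5 (Tgfb1, Tgfbr1, Tgfbr2, Inhba and Tgfbi). In the Trp53ΔIEC group no tumour was highest in more than 4. How often each tumour was highest or lowest over all tested genes was not counted, so these counts describe the 9 genes only. Marker genes of other cell types also differed between the groups, where 3.44% of all tested genes passed as higher in edgeR. Of 9 fibroblast markers 3 rose (Dcn, Fap and Mfap5), while limma-voom called 1 of the 9 (Dcn), and Dcn and Fap each stayed called in 1 of 8 removals. The difference was -0.84 on the log2 scale for Pdgfra (adjusted p = 0.225) and 0.08 for Col6a3 (adjusted p = 0.912). The summed fibroblast level was 493 to 745 CPM in Trp53ΔIEC tumours and 1150, 1060, 716 and 963 CPM in Trp53ΔIECAktE17K replicates 1 to 4. Of 7 smooth muscle markers 5 rose (4 with limma-voom), with sums of 130 to 213 CPM and of 965, 474, 789 and 853 CPM in Trp53ΔIECAktE17K replicates 1 to 4, among them Des with a log2 fold change of 3.81 and Actg2 with 2.48. Pericyte markers rose in 3 of 6 (2 with limma-voom). The 2 most abundant, Rgs5 and Pdgfrb, did not pass (log2 fold changes 0.73 and 0.51, adjusted p = 0.152 and 0.261). All 6 summed to 132 to 202 CPM and to 405, 350, 201 and 298 CPM. Fibroblast and pericyte sums were thus highest in replicate 1 and lowest in replicate 3, whereas the smooth muscle sum was lowest in replicate 2. Squamous epithelium markers rose in 4 of 6 and summed to 13500, 450, 169 and 2030 CPM in Trp53ΔIECAktE17K replicates 1 to 4, against 30.7 to 201 CPM in the other group (limma-voom called 0 of the 6). Columnar epithelium markers summed to 7640 to 9920 and 3940 to 10200 CPM, with replicate 3 at the lowest value, and none of 8 passed in edgeR (DESeq2 called 2 and limma-voom 0, and 3 were under 0.05 before adjustment). The part of these cell types in the levels of the 9 genes was not tested. No listed marker was at 0 in a whole group. Macrophage markers summed to 322 to 650 and 238 to 723 CPM, neutrophil markers to 29.9 to 502 and 200 to 880 CPM, T cell markers to 15.7 to 71.4 and 5.74 to 37.8 CPM and endothelial markers to 113 to 234 and 170 to 331 CPM. None of the 27 tested genes of these 4 lists passed in edgeR, while 5 were under 0.05 before adjustment, 2 were called by DESeq2 and 0 by limma-voom. The lists differed in direction. The fitted log2 fold change was positive for 0 of 7 T cell markers (median -1.12) and 6 of 7 endothelial markers (median 0.84). It was positive for 4 of 7 macrophage markers (median 0.05) and 3 of 6 neutrophil markers (median 0.40).

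Library depth was even, at 18572180 to 26268547 assigned reads. Trp53 was at 23.98 ± 2.19 and 28.98 ± 5.79 CPM and Akt1 at 397.1 ± 22.2 and 370.4 ± 30.5 CPM (SD, n = 4 each), and neither passed (adjusted p = 0.407 and 0.669). Totals per gene show no alleles and check neither genotype. The heart muscle gene Myh6 averaged 53.4 ± 4.39 CPM over the 4 Trp53ΔIECAktE17K libraries and 0.0748 ± 0.101 CPM over the others, whereas Myl7 did not pass (adjusted p = 0.789). Of 6 heart muscle markers 4 rose, 3 with limma-voom (37.2 to 115 and 133 to 198 CPM summed), and of 6 hepatocyte markers 1 fell (36.1 to 69.9 and 12.3 to 129 CPM summed). Their part in the levels reported here was not tested.

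Of 61 tested genes around the pathway, listed by role, 11 rose and 0 fell by the same test, beside 3.44% higher and 0.756% lower over all genes, and their median log2 fold change was 0.18. Before adjustment 4 genes with a lower fitted level had a p under 0.05 (Smad3, Smad6, Itgb8 and, named after its values were seen, Smad9). DESeq2 called 15 of the 61 higher and 3 lower, beside 1721 and 768 of its 20492 genes. For limma-voom the counts were 9 and 0, beside 410 and 107 of 16539 genes.

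Among 7 latency genes 2 rose. Ltbp2, a fibrillin-binding relative of the latent TGF-beta binding proteins, was at 5.96, 7.06, 5.86 and 6.37 CPM in the first group and at 101, 115, 54.4 and 34.8 CPM in the second (log2 difference 3.59, adjusted p = 0.00586), and it stayed called in all 8 removals. Lrrc32, whose product GARP tethers latent TGF-beta to the cell surface, was at 13.2, 9.62, 11.5 and 11.9 CPM and at 61.6, 35.3, 37.0 and 28.9 CPM (1.82, adjusted p = 0.0142). Lrrc32 lost its call without Trp53ΔIEC replicates 2, 3 and 4 in turn (adjusted p = 0.0596, 0.0573 and 0.0638) and with the title letter as a term (0.0593). Neither gene's groups overlapped, as held for 3 of the 7 and for 14.2% of all tested genes (either direction). The median log2 fold change of the 7 was 0.36.

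None of the 8 genes for activation of latent TGF-beta passed (edgeR), with 3 at p under 0.05 before adjustment, 1 call by DESeq2 and 0 by limma-voom. Itgb8, a subunit of an activating integrin, was at 30.6 ± 7.85 and 15.0 ± 5.55 CPM (log2 fold change -1.03, adjusted p = 0.111). Thbs1, the thrombospondin that can activate the latent complex, was at 188.3 ± 76.9 and 481.9 ± 327.7 CPM (1.36, adjusted p = 0.192), and its high values, 693 and 830 CPM, belonged to Trp53ΔIECAktE17K replicates 1 and 2, the tumours with high Tgfb3. With the title letter included its log2 difference was 0.11 (adjusted p = 0.911).

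Of 9 Smads and co-receptors none passed in edgeR (4 with an unadjusted p under 0.05, and 2 and 0 called by DESeq2 and limma-voom). Smad3, the receptor-activated Smad that binds DNA directly, was at 127, 143, 102 and 122 CPM in Trp53ΔIEC and at 64.4, 59.6, 57.4 and 96.2 CPM in Trp53ΔIECAktE17K tumours. Its groups did not overlap, as in 14.2% of all tested genes (either direction), and its log2 fold change was -0.83 (95% interval -1.27 to -0.39, adjusted p = 0.0529). Without Trp53ΔIECAktE17K replicate 4 it was -1.04 and passed (adjusted p = 0.0124). In every other removal it did not pass (adjusted p = 0.0792 to 0.136). With the title letter as a term it was -0.68 (adjusted p = 0.264). Cd109, a membrane protein that binds TGF-beta and dampens its signal, had 2.74 ± 1.59 and 7.82 ± 3.61 CPM (log2 fold change 1.51, adjusted p = 0.153).

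Of 11 feedback inhibitors and corepressors other than Smad7 none passed in edgeR (1 with an unadjusted p under 0.05, and 1 and 0 called by DESeq2 and limma-voom), and their median log2 fold change was 0 to 2 decimals. Smad6, the inhibitory Smad of the BMP branch, was at 72.0, 44.0, 39.7 and 52.1 CPM and at 28.1, 16.8, 10.8 and 33.1 CPM. The 2 ranges were separate, as in 14.2% of all tested genes (either direction), and the log2 fold change was -1.23 (adjusted p = 0.104). Skil, a corepressor induced by TGF-beta, was at 161.0 ± 12.0 and 126.9 ± 23.3 CPM (-0.34, adjusted p = 0.242).

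In the activin branch 3 of 11 tested genes rose. Inhbb, which encodes the beta B subunit of activin B, was at 33.5, 29.0, 18.7 and 20.6 CPM in the first group and at 182, 60.5, 273 and 49.6 CPM in the second (log2 difference 2.47, adjusted p = 0.0482). It was highest in replicate 3, in which Inhba and Tgfb1 were lowest. Fstl3, a secreted activin antagonist of the follistatin type, was at 4.02 ± 0.157 and 9.52 ± 2.64 CPM (1.24, adjusted p = 0.0402). Fstl1, a related secreted glycoprotein gene strongly expressed by mesenchymal cells, was at 141.2 ± 21.6 and 384.8 ± 95.8 CPM (1.45, adjusted p = 0.0149). The call of Inhbb was lost in 7 removals, with adjusted p values from 0.0522 (without Trp53ΔIECAktE17K replicate 2) to 0.132 (without Trp53ΔIEC replicate 4), and kept without Trp53ΔIECAktE17K replicate 4. Inhbb had an adjusted p of 0.109 with limma-voom, 0.0504 with RLE scaling and 0.0627 without the low-count filter. Fstl3 lost its call without any 1 Trp53ΔIEC tumour and without Trp53ΔIECAktE17K replicate 1 or 2 (0.0778 to 0.110), and with no low-count filter (0.0559). Fstl1 lost its call without Trp53ΔIEC replicate 2, 3 or 4 (0.0629, 0.0580 and 0.0638). With the title letter included the adjusted p was 0.0507 for Fstl1, 0.139 for Inhbb and 0.195 for Fstl3.

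Genes known to respond to TGF-beta rose in 6 of 15 tested, with a median log2 fold change of 1.18. They were Ccn2, a matricellular growth factor gene (64.8 ± 16.2 and 320.7 ± 140.7 CPM), Acta2, the actin of smooth muscle and myofibroblasts (152.1 ± 33.1 and 343.7 ± 64.6 CPM), and Cdh2, which encodes N-cadherin (0.458 ± 0.216 and 7.54 ± 5.29 CPM). The collagen I gene Col1a1 rose by 1.38 on the log2 scale (adjusted p = 0.0419), its partner Col1a2 by 1.21 (0.0296) and the transcription factor gene Snai1 by 1.26 (0.0408). Fibroblasts and smooth muscle also express genes of this list, and 3 of 9 fibroblast and 5 of 7 smooth muscle markers rose between the same groups. The part of these cells in the values of this list was not tested. Each of the 6 lost its call in some removals, and the highest adjusted p was 0.0733 for Ccn2, 0.0799 for Acta2, 0.0846 for Cdh2 and 0.0970 for Col1a2, all without Trp53ΔIEC replicate 2. It was 0.113 for Snai1 without that replicate and 0.113 for Col1a1 without Trp53ΔIECAktE17K replicate 1. By limma-voom Snai1 had an adjusted p of 0.0537 and the other 5 stayed called. Once the title letter was a term Ccn2 stayed called (0.0495), whereas Cdh2 (0.0873), Col1a2 (0.0894), Acta2 (0.107), Snai1 (0.125) and Col1a1 (0.207) did not.

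**Figure D4:**
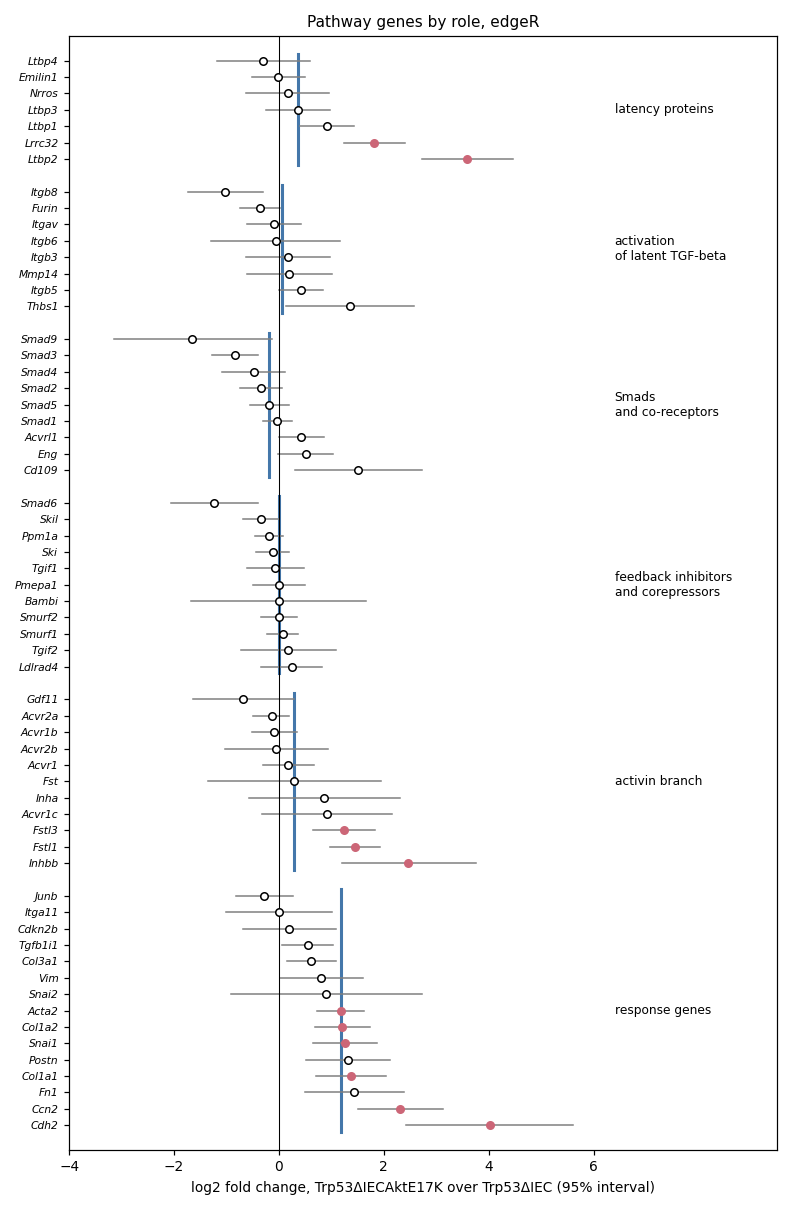
Log2 fold change of Trp53ΔIECAktE17K over Trp53ΔIEC (x axis, edgeR, with 95% interval) for 61 pathway genes ordered by role. Filled points have an adjusted p under 0.05 and the vertical bar is the median of the role, which is 1.18 for the response genes and 0.36 for the latency genes.

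For each of the 9 genes the 3 genes with the most similar profile were taken, by the mean absolute difference in centred log2 CPM over the 8 tumours among 11959 genes with a mean of at least 5 CPM. Notch3, a Notch receptor gene named in the title of the series, was nearest to Tgfb2, with a mean difference of 0.266 log2 units, followed by P3h2 (0.295) and Lrrc32 (0.300). Nearest to Tgfb3 were 3 matrix genes, Col16a1 (0.348), Col14a1 (0.388) and Prelp (0.409), which ranged from 30.5 to 349 CPM, 7.30 to 94.0 CPM and 18.3 to 118 CPM. The nearest genes of Tgfbr3 were Myom1 (0.194), Dpep1 (0.201) and Ctsk (0.241), with log2 fold changes of 1.52, 1.85 and 1.59. The smallest distances were those of 3 other genes: the nearest of Tgfb1 was Mtch1 at 0.091, that of Tgfbr1 Ets1 at 0.091 and that of Tgfbr2 Mical2 at 0.100. Smad7 was nearest to Trp53inp1 (0.165), Inhba to Pgf (0.247) and Tgfbi to Eva1a (0.128). Such a distance can be small because both genes vary little, so it does not rank likeness between the 9 genes. These distances describe 8 tumours and carry no test.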

How the data were processed

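RNA of 8 whole colon tumours, 1 per mouse, was measured by polyadenylated RNA sequencing (RNeasy, TruSeq mRNA v2, per the labels' protocols), a kit that does not mark strand. The authors deposited raw counts of reads per Ensembl gene and tumour. The submitters' processing notes list, without roles, the build mm10 and the tools HTSeq 0.6, SAMtools 1.2, DESeq2 1.8.1, STAR 2.3.0 and CASAVA 1.8.2. Annotation release, strand setting and read filters: not given in the sources used here. The 5 closing lines of each table were left out. Reads in no feature came to 11.0% to 13.5% of the assigned reads and ambiguous reads to 2.18% to 2.65%. Non-unique alignments, counted for no gene, equalled 71.8%, 69.3%, 69.3% and 73.6% of the assigned reads in Trp53ΔIEC replicates 1 to 4. In Trp53ΔIECAktE17K replicates 1 to 4 they equalled 75.8%, 81.4%, 91.6% and 73.8%, so the groups did not overlap. The part of this difference in the levels reported was not tested. No 2 libraries were identical. Symbols, positions and merged exon lengths were taken from GENCODE M21 (GRCm38), where 36602 of 38355 identifiers were found (95.4%).

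The groups were compared with edgeR 4.0.16 (R 4.3.3): filterByExpr, TMM scaling and the robust quasi-likelihood F-test with the group as its only term, Benjamini-Hochberg adjustment over all 16539 genes tested and a threshold of 0.05. The code was tested on simulated data. Intervals use the test's SE and degrees of freedom. log2 CPM had a prior count of 2. Shares within ligands and within receptors were compared by exact permutation. Alternatives were RLE and upper-quartile scaling, no low-count filter, DESeq2 1.42.0, limma-voom 3.58.1, each tumour left out, the title letter as a term and a replicate block. Mice are separate, and same-numbered tumours did not deviate together (correlations of -0.039, 0.008, -0.243 and 0.009). With 4 tumours per group such values cannot exclude a shared batch, and the numbers were not used as pairs in the reported fit.

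Genes named are the 9 members, up to 6 called genes per role list or otherwise the 2 with the smallest p, where named, the 2 most abundant markers of a cell type list, and the 3 nearest profiles. Members and lists were chosen with earlier results of these data known, and 1 further gene of the set is not reported here. Trp53 and Akt1 were added for the genotypes. P-values measure variation between mice of these groups.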

Additional observations from a re-analysis of the deposited data

Results flagged for a closer look

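In groups of 4 tumours, a value was singled out where its gap to the nearest other tumour was above Dixon's 95% critical value, as a share of the group's range, which chance alone gives in about 1 of 20 groups. Of 64 groups examined 4 had such a value. Tgfb2 was at 52.5 CPM in Trp53ΔIECAktE17K replicate 1 (gap 0.856 of the range). Tgfbr2 was at 95 CPM in Trp53ΔIECAktE17K replicate 3, the lowest of its group (0.840). Tgfbi was at 327 CPM in Trp53ΔIEC replicate 1 (0.866), and Acta2 was at 201 CPM in the same tumour (0.898).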

How the results depend on the processing

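The count of called TGF-beta genes depended on the processing. It was 1 (Tgfbr3) in the reported fit, with RLE or upper-quartile scaling, without the low-count filter and with limma-voom, 3 with DESeq2, 0 with the title letter as a term and 0 to 2 with each tumour left out. None was called lower under any setting. The pathway genes called higher numbered 11, and 15 with DESeq2, 2 with the letter as a term and 1 to 11 with 1 tumour left out. Those called lower numbered 0, and 3 with DESeq2 and 0 to 1 with 1 tumour left out. Over all genes 569 were higher and 125 lower, and DESeq2 gave 1721 and 768, the letter term 90 and 6, and the removals 64 to 702 and 10 to 247. The removals also leave fewer tumours. With a replicate block, on numbers not known to pair the mice, 48 genes were higher and 2 lower over all, 0 of the 9 were higher and 1 pathway gene was. No tumour correlated best with its own number. Under the block the shares had adjusted p values of 0.375 to 0.625, where 4 pairs allow no p under 0.125. With the letter as a term Tgfb1, Tgfbr2, Inhba and Tgfbi changed sign, to -0.02, -0.13, -0.09 and -0.28. With 1 tumour left out Tgfbr2 ranged from -0.05 to 0.25 and Tgfbi from -0.13 to 0.54. The cause was not tested. Differences in shares kept their sign without length scaling and in all removals. Depth limits Inhba, with as few as 9 reads in a tumour.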
